A study of Mus musculus with 2 samples.

Results

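The genes of the collagen chains were examined in a map of open chromatin in mouse adipocytes. Members were the protein-coding genes of GENCODE release M21 whose symbol reads Col, a number, the letter a and a number, which gave 44 of 21829 protein-coding genes. They were divided by the protein they encode into 11 fibrillar genes, 6 genes of basement membrane collagen (type IV), 6 genes of type VI collagen and 21 others. The cells were adipocytes on day 8 of differentiation from 3T3-L1, a clonal mouse line of fibroblast-like preadipocytes that accumulates lipid droplets when induced. DNase-seq, in which the nuclease DNase I cuts DNA that is not wrapped tightly in chromatin, had been run on 2 libraries, labelled as biological replicates 1 and 2 of this single group, with no genetic change and no agent named in the labels. The labels give the strain as C57BL/6J, whereas 3T3-L1 is usually traced to Swiss mice, and no strain is taken as given here. Both cultures carried the same donor record and the labels do not say whether they were grown apart, so the spread between the libraries may be technical. Undifferentiated 3T3-L1 cells were not analysed here, and every value below describes the adipocyte cultures alone.

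Collagens are proteins of the extracellular matrix in which alpha chains wind into a triple helix. Fibrillar collagens form the cables that bear tension, type IV collagen forms the sheet-like network of basement membranes, and type VI collagen forms beaded microfibrils that link cells to the matrix. In fat, each mature adipocyte is wrapped in a basement membrane, fibrillar collagens fill the stroma, and type VI collagen is abundant around the cells. Preadipocytes are known to make much fibrillar collagen, and basement membrane collagen is known to be produced as 3T3-L1 cells differentiate.

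Replicate 1 had 133695 peaks, the short accessible sites called by the authors, and replicate 2 had 216556. Merging the lists gave 117590 regions found in both replicates, 12194 found in replicate 1 alone and 91754 found in replicate 2 alone. Each peak has a deposited signal value between 1 and 150, with a median of 45 in replicate 1 and 69 in replicate 2, so a value is given below with its percentile, the share of peaks of its own list with a lower value, wherever lists are set side by side. The sequencing depth is unknown, and a region without a peak is one that was not detected at that depth. All 8 adipocyte marker genes examined had a promoter peak in both replicates, as did 5 of 6 markers of preadipocytes and fibroblasts (all but Dlk1), 1 of 5 of chondrocytes (Sox9), 1 of 4 of osteoblasts (Alpl), 0 of 4 of endothelium, 0 of 3 of blood cells and 0 of 2 of muscle. The share over all protein-coding genes was 55.3%, and these short lists were not tested against it. The cultures were assayed in bulk, so a site that is open in a few remaining preadipocytes and one that is weakly open in every cell cannot be told apart.

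A gene was said to have a promoter peak when a peak overlapped the 1000 bp to either side of a start site of one of its protein-coding transcripts. In replicate 1, 18 of the 44 collagen genes had one (40.9%, against 55.6% of all protein-coding genes), and in replicate 2, 22 had one (50%, against 59.5%). The mean over the libraries was 45.5% ± 6.43 (SD, n = 2) for the collagen genes and 57.6% ± 2.8 (SD, n = 2) for all genes. The 18 genes of replicate 1 were all among the 22 of replicate 2, so 18 had a promoter peak in both, 40.9% against a background of 55.3%. Widening the window to 2500 bp turned this order, with 63.6% of collagen genes and 61% of all genes accessible. With the start sites of every transcript, which the plan had named, 24 collagen genes were accessible, 54.5% against 57.2% of all genes. The shortfall thus depended on the rule. No test across genes was made for this or any other count, because there is a single group and genes are not replicates of it.

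By class, a promoter peak in both replicates was found at 8 of 11 fibrillar genes, 3 of 6 basement membrane genes, 3 of 6 type VI genes and 4 of 21 other genes, where the share over all genes was 55.3%. The count of the other genes depended on the rule, with 12 of 21 at a window of 2500 bp and 8 of 21 with the start sites of every transcript. The fibrillar genes were Col1a1, Col1a2, Col3a1, Col5a1, Col5a2, Col5a3, Col11a2 and Col27a1. The basement membrane genes were Col4a1, Col4a2 and Col4a5, the type VI genes were Col6a1, Col6a2 and Col6a3, and the others were Col16a1, Col23a1, Col18a1 and Col8a1. In replicate 2 alone, promoter peaks also appeared at Col6a5, Col6a6, Col12a1 and Col10a1, with values from 37 to 62, at the percentiles 7.1 to 40.7 of that list. No collagen gene had a promoter peak in replicate 1 alone. The remaining 22 genes had none in either library.

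**Figure D1:**
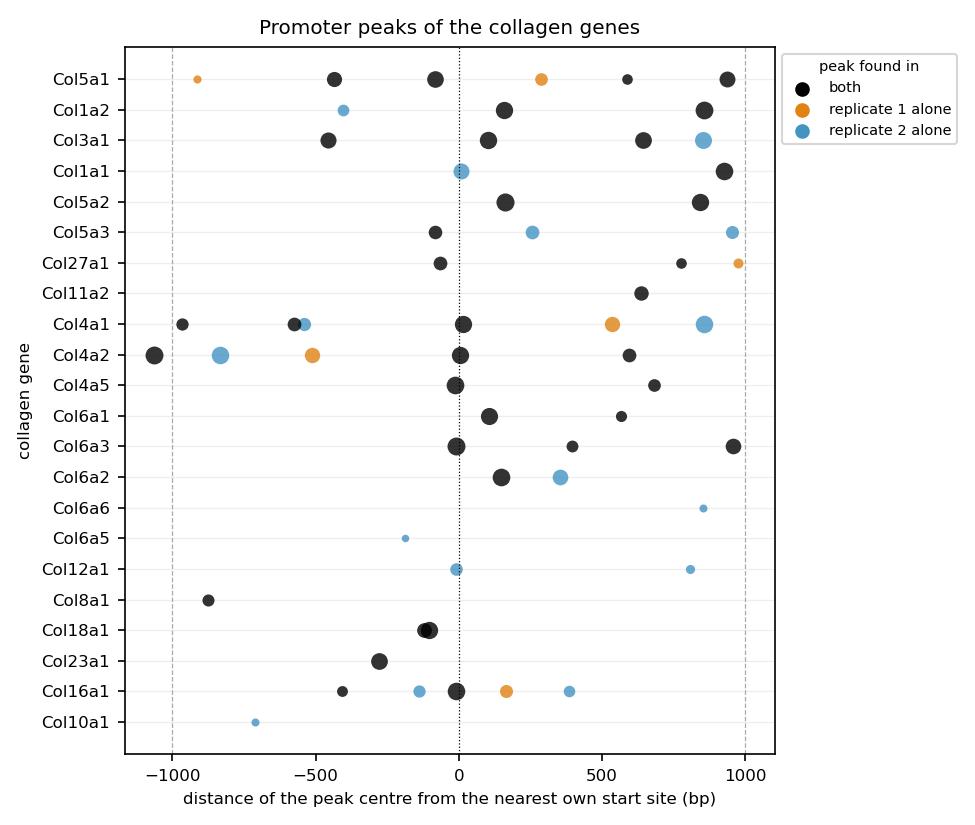
Promoter peaks of the 22 collagen genes that had any, placed by the distance in bp of the peak centre from the nearest start site of the gene (negative values lie before it). Black points are peaks of both replicates, orange points of replicate 1 alone and blue points of replicate 2 alone; a larger point has a higher percentile in the list of replicate 1, or of replicate 2 where it is found there alone, and dashed lines mark 1000 bp. Col6a5, Col6a6, Col12a1 and Col10a1 have blue points alone.

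Away from promoters, 397 distal shared peaks were assigned to collagen genes: regions holding a peak of both replicates, whose centre lay over 1000 bp away from all protein-coding start sites and whose nearest one, within 100 kb, was that of a collagen gene. Counted by library, 432 distal peaks were assigned to the 44 genes in replicate 1 and 723 in replicate 2. The mean per gene over the libraries was 13.12 ± 4.68 (SD, n = 2) for collagen genes and 5.44 ± 2.03 (SD, n = 2) for all genes. Replicate 2 exceeded replicate 1 by a factor of 1.67 at collagen genes and 1.72 at all genes, so the excess of replicate 2 was of like size in both. A collagen gene had a median of 6 distal shared peaks, where the median gene had 2. Of the 44 genes, 15 had at least 10, against 9.68% of all genes, and 4 had at least 20, against 1.72%. Col9a3 and Col7a1 had none, against 30.3% of all genes.

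Collagen genes are spread over long stretches of genome, and distal counts grew with that stretch over all genes. The territory of a gene, the length of sequence closer to its start sites than to those of any other gene within the 100 kb reach, had a median of 131.2 kb for collagen genes and 43.7 kb for all genes. When all genes were divided into 10 equal classes by territory, the classes held by the 44 collagen genes averaged 6.04 distal shared peaks per gene, and the collagen genes had a mean of 9.02. In the class with the longest territories, the 14 collagen genes had a median of 14 and a mean of 14.79, against 7 and 9.18 for all genes there. From class 2 to class 9, counted from the shortest, the collagen medians were 4, 0, 0.5, 3, 5, 9, 4 and 4. For all genes of these classes they were 0, 1, 1, 2, 3, 4, 4 and 6. By the median, the excess was thus not found in every class, and classes 2 and 3 held 1 collagen gene each. Counts above more than 95% of the genes of the same class were found at Col6a1 (99.4%), Col1a2 (99.1%), Col4a1 (99.1%), Col5a3 (98.4%), Col1a1 (96.4%) and Col4a2 (95.5%). The values of Col4a1 and Col4a2 depend on the assignment rule, because their starts adjoin. Of the sites of Col4a1, 16 lay inside Col4a2, and all 4 sites of Col4a2 lay inside Col4a1. At the other end, among collagen genes with any distal shared peak, Col4a4 exceeded 12.8% of the genes of its class, Col25a1 18.2% and Col10a1 18.4%.

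**Figure D2:**
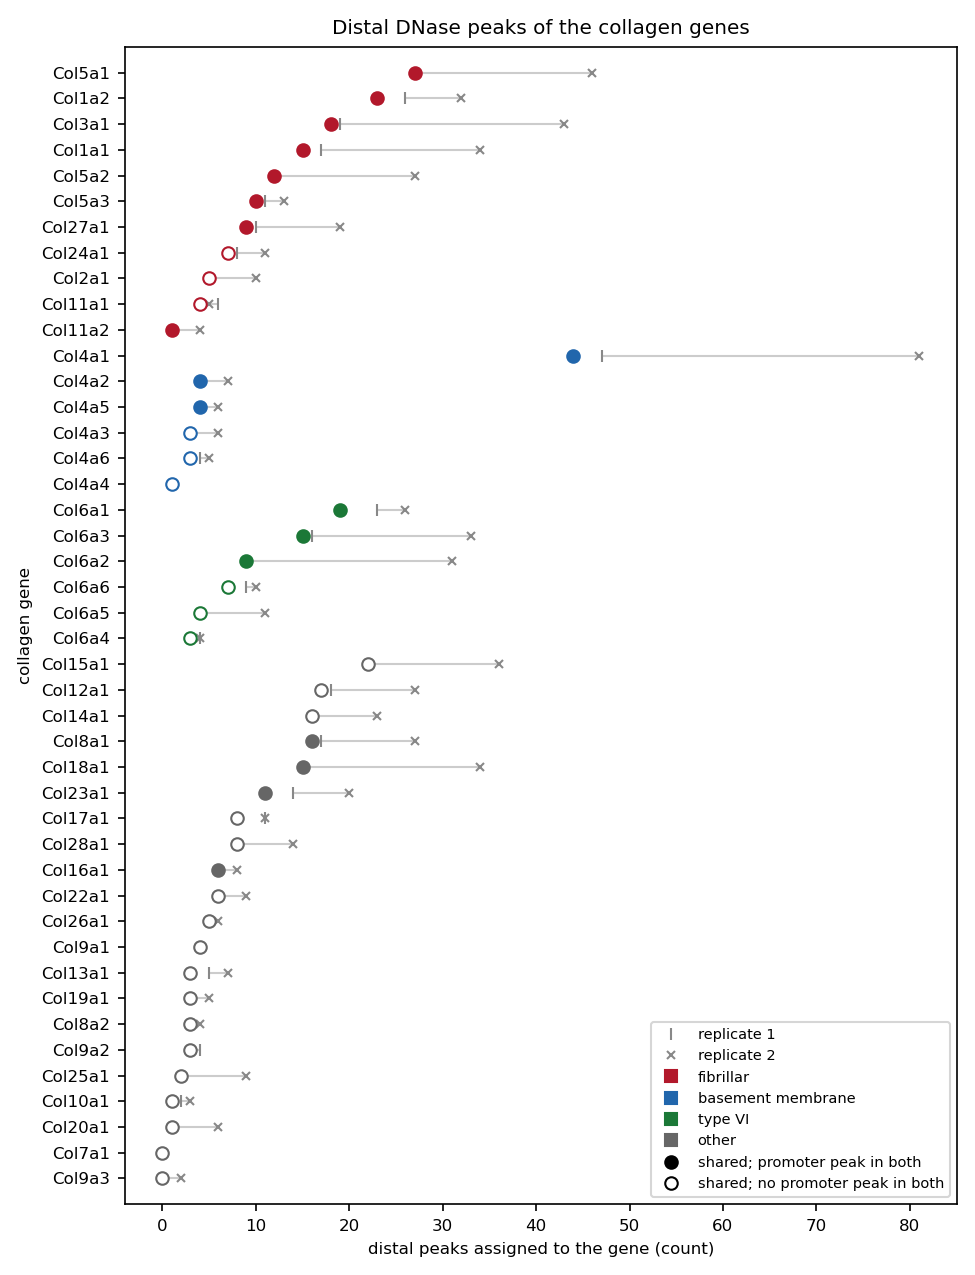
Number of distal peaks assigned to each of the 44 collagen genes, by class. Circles are peaks found in both replicates, filled where the promoter also has a peak in both; grey bars and crosses are the counts of replicate 1 and replicate 2. Col4a1 has the highest count, 44 shared peaks, with 47 in replicate 1 and 81 in replicate 2.

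**Figure D3:**
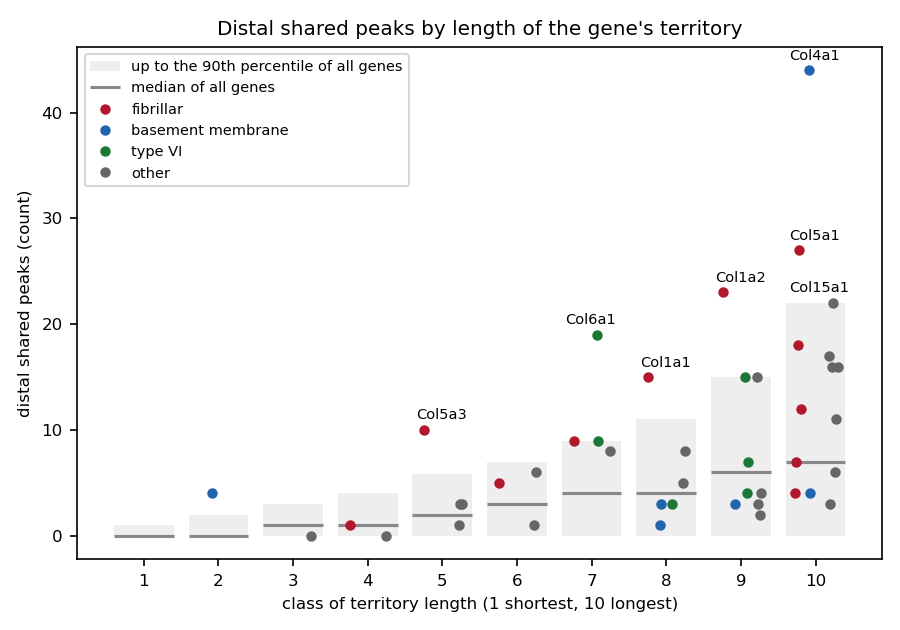
Distal shared peaks of each collagen gene (points, coloured by class) by class of territory length (1 to 10), from the shortest to the longest. Grey boxes reach the 90th percentile of all protein-coding genes of that class and grey lines mark their median. Col4a2, Col5a3, Col6a1, Col1a1, Col1a2, Col5a1 and Col4a1 lie above the boxes, and the 14 collagen genes of the longest class range from 3 to 44. Col4a1 and Col4a2 are drawn apart, although the nearest start divides the sites of a common locus between them.

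Promoter state and distal count went together within the collagen genes as they did over all genes. The 18 collagen genes with a promoter peak in both replicates had a median of 13.5 distal shared peaks and a range from 1 to 44, and the other 26 had a median of 3.5. Over all genes the medians were 3 and 1. Col15a1, Col12a1 and Col14a1 went against this order, with 22, 17 and 16 distal shared peaks and no promoter peak in both replicates. Of these, Col15a1 gained a promoter peak in both replicates with the start sites of every transcript.

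Type I collagen, the main fibril of skin, tendon and bone, is built from the products of Col1a1 and Col1a2. Col1a2 (chromosome 6, 4504814 to 4541544, plus strand) had 26 distal peaks in replicate 1, 32 in replicate 2 and 23 in both. Of the 23, 17 lay before the start of the gene, 2 inside it and 4 past its end. The strongest by replicate 1 value stood 87.4 kb before the start, with values of 118 and 137 in replicates 1 and 2, and the next 85.5 kb before it, with 116 and 144. A second run lay close to the gene, at 16.3 kb (109 and 139), 15.3 kb (97 and 134) and 14.8 kb (75 and 123) before the start. The promoter peaks of Col1a2 had values of 88 and 125 at the start used by RefSeq and of 101 and 136 further into the gene.

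The Col1a2 promoter is shown because a peak of both replicates, chr6:4505576-4505725, covers its start; the sequence is RefSeq's for GRCm38.p6, from 250 bases before to 50 after the start, chr6:4505368-4505667 on the plus strand. Capitals mark the CCAAT box (CCAAT, or ATTGG where it is read on the other strand) and the GC box (GGGCGG, or CCGCCC), each searched on both strands.
Col1a2 promoter: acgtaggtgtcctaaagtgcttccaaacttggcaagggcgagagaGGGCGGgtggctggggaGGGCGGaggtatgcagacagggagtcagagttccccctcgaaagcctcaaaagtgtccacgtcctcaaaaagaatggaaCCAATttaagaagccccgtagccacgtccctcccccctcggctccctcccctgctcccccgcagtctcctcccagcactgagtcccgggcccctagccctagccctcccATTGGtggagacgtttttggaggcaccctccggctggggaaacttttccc
The window holds 2 CCAAT boxes, 1 on either strand, and 2 GC boxes. Over 32851 RefSeq promoters of this length, 37.4% hold a CCAAT box and 35.7% a GC box.

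The strongest distal peaks of a fibrillar pair follow, chr6:4417296-4417445 for Col1a2 and chr2:27858676-27858845 for Col5a1, on the plus strand of GRCm38. They are the distal sites with the highest replicate 1 values in the fibrillar class. Capitals mark AP-1 (TGANTCA), C/EBP (TTGCNNAA), TEAD (GGAATG), the NFI core (TTGGCA) and RUNX (TGTGGTT), searched on both strands; TGANTCA reads the same on both, so it counts once.
Col1a2 distal peak: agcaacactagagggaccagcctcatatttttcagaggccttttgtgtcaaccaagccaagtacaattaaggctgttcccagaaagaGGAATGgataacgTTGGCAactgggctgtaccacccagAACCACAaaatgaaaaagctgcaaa
Col5a1 distal peak: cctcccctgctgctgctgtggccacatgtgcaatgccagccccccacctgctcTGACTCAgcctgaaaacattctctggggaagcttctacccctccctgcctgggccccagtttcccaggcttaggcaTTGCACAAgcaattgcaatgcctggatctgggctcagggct
The Col1a2 site holds 1 TEAD match, 1 NFI core and 1 RUNX match on the minus strand, and the Col5a1 site holds 1 AP-1 match and 1 C/EBP match.

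Col1a1 (chromosome 11, 94936224 to 94953042, plus strand) had 17 distal peaks in replicate 1, 34 in replicate 2 and 15 in both. Of the 15, 14 lay before the start and 1 inside the gene, which is 16.8 kb long. The strongest pair stood 22.4 kb (115 and 139) and 22.6 kb (100 and 135) before the start. Its shared promoter peak, with 95 and 133, was centred 927 bp past the start, while the peak over the start itself, at 7 bp, was found in replicate 2 alone with a value of 95. With a window of 500 bp, Col1a1 therefore had no promoter peak in both replicates.

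Col3a1 encodes type III collagen, which forms fibrils with type I in extensible tissues such as skin and vessel wall. It (chromosome 1, 45311538 to 45349706, plus strand) had 19 distal peaks in replicate 1, 43 in replicate 2 and 18 in both. Its 3 shared promoter peaks had values of 67 and 109, 90 and 136, and 77 and 103, from 457 bp before to 643 bp past the start, so the promoter was open over much of the window. The hotspot over it, a broader region of raised cutting in the authors' second list, was 1144 bp long in replicate 1 and 2704 bp in replicate 2, where the median gene with a promoter peak had 921 and 1399 bp. Just past the start, 2 sites in intron 1 had values of 92 and 137 and of 93 and 132. The strongest distal site of Col3a1 lay past the end of the gene, 44.6 kb from the start, with 111 and 139.

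The Col3a1 promoter is shown because its window holds the letters of a TATA box (TATAAA in capitals, or TTTATA on the other strand). Of all RefSeq promoters, 13.6% hold them, at any place in the window. At Col3a1 the match begins at base 134, where the first 250 bases lie before the start, and no peak of either replicate covers it. The sequence is chr1:45311288-45311587 of GRCm38.p6, plus strand, from RefSeq, and its last bases are covered by the shared peak chr1:45311556-45311725.
Col3a1 promoter: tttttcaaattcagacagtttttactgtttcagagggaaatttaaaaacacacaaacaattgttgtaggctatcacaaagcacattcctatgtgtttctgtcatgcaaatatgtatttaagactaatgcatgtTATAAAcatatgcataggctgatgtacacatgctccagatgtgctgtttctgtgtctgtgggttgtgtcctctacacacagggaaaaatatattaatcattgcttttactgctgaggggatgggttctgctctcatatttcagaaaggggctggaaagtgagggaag
The window holds no CCAAT box and no GC box, in contrast to Col1a2.

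Type V collagen nucleates fibrils and limits their diameter. Col5a1 (chromosome 2, 27886425 to 28039514, plus strand) had 27 distal peaks in replicate 1, 46 in replicate 2 and 27 in both, 16 of them inside the gene and 11 before it. Its strongest distal site, printed above, stood 27.7 kb before the start with 117 and 137, and 4 shared promoter peaks had replicate 1 values from 31 to 75 and replicate 2 values from 75 to 131. The hotspot over the promoter was 2726 bp in replicate 1 and 4246 bp in replicate 2, longer than at 97.6% and 98.7% of genes with a promoter peak. Col5a1 thus had the widest promoter hotspot of the collagen genes in both libraries.

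Col5a2 lies tail to tail with Col3a1 on chromosome 1, with start sites 191.7 kb apart, and the pair had 31 distal peaks in replicate 1, 70 in replicate 2 and 30 in both. Of the shared sites assigned to Col3a1, 5 lay in introns of Col5a2, so the nearest start divides the sites of the pair. Col5a2 itself (45374321 to 45503282, minus strand) had 12 in replicate 1, 27 in replicate 2 and 12 in both. Its promoter peak 161 bp past the start had values of 111 and 142, the highest replicate 1 value among the promoter peaks of collagen genes. A further 18 shared regions nearest to Col3a1 and 5 nearest to Col5a2 lay beyond the 100 kb reach and were not counted. Col5a3, a minor type V chain, had 10 shared sites (11 in replicate 1 and 13 in replicate 2), all inside the gene, the strongest 10.6 kb past the start with 111 and 137. Its promoter peak was weaker, with 45 and 100, at the percentiles 49.3 and 76.6.

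Lower counts were found at the other fibrillar genes, which are known from cartilage and bone. Col2a1, the chain of type II collagen and the main fibril of cartilage, had no promoter peak in either replicate and 5 distal shared peaks (5 in replicate 1 and 10 in replicate 2). The strongest, 18.6 kb before the start, had values of 53 and 94, at the percentiles 59.8 and 72.3. Col11a1, of type XI collagen in cartilage fibrils, had 4 (6 and 5), and Col11a2, its partner chain, had 1 (1 and 4) with a promoter peak of 51 and 104. Col24a1 and Col27a1, minor fibrillar chains of bone and cartilage, had 7 (8 and 11) and 9 (10 and 19), and of these Col27a1 alone had a promoter peak in both, with 46 and 92. Set against genes of the same territory class these counts were not all low: Col27a1 exceeded 87.8% of its class and Col2a1 73.5%, while Col24a1 exceeded 49.3%, Col11a1 36.1% and Col11a2 31.6%. For comparison, Col5a2 exceeded 67.2% of its class, a count without the sites in its introns that were assigned to Col3a1.

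**Figure D4:**
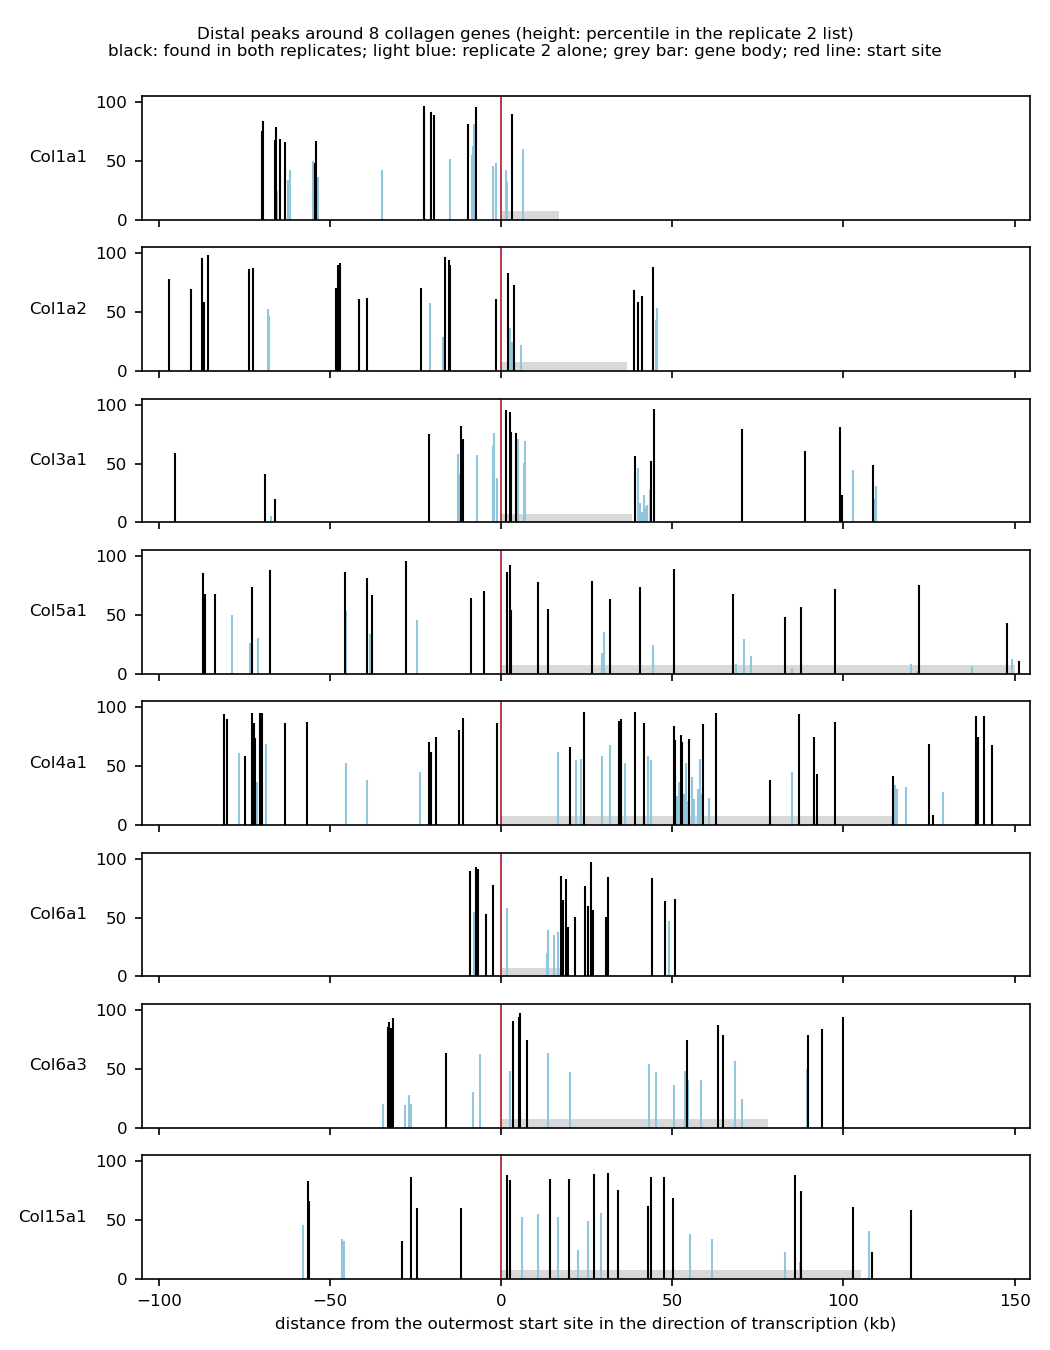
Distal peaks of 8 collagen genes by distance in kb from the outermost start site, in the direction of transcription. The height of a line is the percentile of the peak in the list of replicate 2, black for peaks of both replicates and light blue for replicate 2 alone (peaks of replicate 1 alone are not drawn); the grey bar is the gene body and the red line the start. The shared sites of Col1a1 and Col1a2 lie mostly before the start, those of Col6a1 mostly past its end, and those of Col5a1, Col4a1 and Col15a1 run through the gene.

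Type IV collagen genes are arranged in head-to-head pairs that share a promoter region. Col4a1 and Col4a2 encode the chains found in nearly all basement membranes, and their starts on chromosome 8 lie 21 bp apart with gene models that overlap by 22 bp. A single peak over both starts, chr8:11312716-11312905, had the value 87 (percentile 86.8) in replicate 1 and 127 (percentile 91.5) in replicate 2. The hotspot over it was 1637 bp in replicate 1 and 3101 bp in replicate 2.

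The peak is printed because it holds the starts of both genes. It is given on the plus strand of GRCm38, where the start of Col4a2, read to the right, is base 90 and the start of Col4a1, read to the left, is base 111. Capitals mark CCAAT and GC boxes as above.
Col4a1 and Col4a2 promoter peak: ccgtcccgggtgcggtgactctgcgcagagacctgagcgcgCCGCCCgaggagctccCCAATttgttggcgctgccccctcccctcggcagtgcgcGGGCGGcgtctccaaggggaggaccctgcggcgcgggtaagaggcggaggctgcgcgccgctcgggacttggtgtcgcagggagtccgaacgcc
The sequence holds 1 CCAAT box, on the plus strand, and 2 GC boxes, 1 on either strand.

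Since the gene models overlap, the nearest start is the one of the other gene: sites inside Col4a2 are assigned to Col4a1 and sites inside Col4a1 near its start to Col4a2. The pair was therefore read as 1 locus, which had 51 distal peaks in replicate 1, 88 in replicate 2 and 48 in both. Of the 44 assigned to Col4a1, 18 lay inside Col4a1, 16 inside Col4a2 and 10 in intergenic sequence, and all 4 assigned to Col4a2 lay inside Col4a1. The strongest stood just before the Col4a2 start at 1064 bp (105 and 141) and 24.3 kb into Col4a1 (108 and 137). Runs of sites thus followed both genes to either side of the common promoter.

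The other head-to-head pairs had far fewer sites. Col4a3 and Col4a4, whose chains with that of Col4a5 build the membrane of the kidney glomerulus, start 127 bp apart and had no promoter peak in either replicate. The pair had 4 distal shared peaks, with 4 in replicate 1 and 7 in replicate 2. Col4a5 and Col4a6 on the X chromosome had 7, with 8 in replicate 1 and 11 in replicate 2. Col4a5 had a promoter peak 14 bp before its start with 97 and 134, and Col4a6 had none. The centre of that peak stood 1295 bp from the Col4a6 start, outside the window, and the hotspot around it, of 1807 bp in replicate 1 and 1778 bp in replicate 2, reached into it. Taking hotspots in place of peaks accordingly added Col4a6, and Col14a1, to the accessible genes.

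The main type VI microfibril is assembled from the chains of Col6a1, Col6a2 and Col6a3. Col6a1 (chromosome 10, 76708792 to 76726168, minus strand) had 23 distal peaks in replicate 1, 26 in replicate 2 and 19 in both. None of the 19 lay inside the gene, 14 lay past its end and 5 before its start, the strongest 26.2 kb from the start in intergenic sequence (110 and 142). Its neighbour Col6a2 (76595762 to 76623630, minus strand) had 9 in replicate 1, 31 in replicate 2 and 9 in both, all 9 before its start. The strongest stood 25.3 kb (114 and 143) and 41.3 kb (112 and 139) before the start, in the stretch between the genes. The starts of the pair are 102.5 kb apart, and together they had 32 distal peaks in replicate 1, 57 in replicate 2 and 28 in both. The sites of this pair thus lay mostly between the genes, and the nearest start does not tell which gene a site serves. The promoter peaks were 84 and 126 at Col6a1 and 97 and 123 at Col6a2.

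Col6a3 encodes the long chain whose terminal fragment, endotrophin, is released by fat tissue. It (chromosome 1, 90765923 to 90843971, minus strand) had 16 distal peaks in replicate 1, 33 in replicate 2 and 15 in both, with 7 inside the gene, 5 before it and 3 past its end. The strongest lay in intron 1, 5.6 kb from the outermost start, with 112 and 141, and the promoter peak had 107 and 137. These stood at the percentiles 96.3 and 97.3 and at 94.9 and 95.7 of the lists, near the top of both.

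The Col6a3 promoter and the strongest distal peak of Col6a2 are shown as the main type VI sites. The promoter is RefSeq's, chr1:90843922-90844221 of GRCm38.p6, printed 5′ to 3′ on the minus strand, and no CCAAT, TATA or GC box was found in it. The distal peak is chr10:76648876-76649025, on the plus strand, with its NFI core in capitals.
Col6a3 promoter: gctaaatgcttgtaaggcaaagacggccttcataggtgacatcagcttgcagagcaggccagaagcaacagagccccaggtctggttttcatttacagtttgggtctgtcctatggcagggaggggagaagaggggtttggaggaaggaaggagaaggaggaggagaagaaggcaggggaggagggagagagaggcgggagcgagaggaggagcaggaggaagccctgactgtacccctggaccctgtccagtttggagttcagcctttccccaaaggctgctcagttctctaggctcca
Col6a2 distal peak: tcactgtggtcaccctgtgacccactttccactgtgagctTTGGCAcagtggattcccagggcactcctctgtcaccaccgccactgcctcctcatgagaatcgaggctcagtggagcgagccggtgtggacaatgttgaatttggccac

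The other type VI genes, Col6a4, Col6a5 and Col6a6, lie side by side on chromosome 9, and each is long. They had 3 (4 in replicate 1 and 4 in replicate 2), 4 (4 and 11) and 7 (9 and 10) distal shared peaks and no promoter peak in both replicates. Replicate 2 alone had a promoter peak of 37 at Col6a5 and of 40 at Col6a6, at the percentiles 7.1 and 9.9 of its list. The strongest shared site of the 3 genes had 59 and 94, well under the values at Col6a1 to Col6a3.

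Among the 21 other genes, multiplexins, collagens of the basement membrane zone with interrupted helices, had many distal sites. Col15a1 (chromosome 4, 47208161 to 47313167, plus strand) had 22 distal peaks in replicate 1, 36 in replicate 2 and 22 in both, 14 of them inside the gene. The strongest, 27.0 kb past the outermost start in intron 2, had 100 and 122. No peak fell within 1000 bp of a Col15a1 start in either replicate, although a shared site with 94 and 121 lay 1.6 kb past the outermost one. Col18a1, whose product releases the fragment endostatin, had 15 in replicate 1, 34 in replicate 2 and 15 in both. Its promoter peaks, with 88 and 115 and with 53 and 101, lay at internal starts 52602 and 77120 bp from the outermost, and the outermost had none.

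For Col4a1 and Col15a1, the strongest distal sites are intronic, and both are printed as such on the plus strand, chr8:11288476-11288645 and chr4:47235076-47235245. Neither holds any of the 5 motifs that are in capitals at the Col1a2 and Col5a1 sites, so both stand in lower case.
Col4a1 distal peak: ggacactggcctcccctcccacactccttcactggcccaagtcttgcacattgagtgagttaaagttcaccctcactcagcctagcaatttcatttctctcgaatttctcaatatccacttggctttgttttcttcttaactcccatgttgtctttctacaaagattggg
Col15a1 distal peak: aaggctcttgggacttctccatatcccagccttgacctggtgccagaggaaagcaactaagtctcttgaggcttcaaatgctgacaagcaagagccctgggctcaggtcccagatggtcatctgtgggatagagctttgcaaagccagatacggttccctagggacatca
That these letters are missing from the windows says nothing on which factors bind there.

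FACIT collagens coat the surface of fibrils. Col12a1 and Col14a1, which coat type I fibrils, had 17 (18 in replicate 1 and 27 in replicate 2) and 16 (16 and 23) distal shared peaks. Of the 16, 10 lay before the Col14a1 start, and those 71.2 to 83.5 kb before it were in introns of another gene, Deptor. At Col12a1 the promoter peak over the start, with a value of 62, was found in replicate 2 alone, under a hotspot of 201 bp. No hotspot of replicate 1 reached the promoter window. At Col14a1 no promoter peak was called in either, although a hotspot of 606 bp in replicate 1 and 718 bp in replicate 2 reached the window. Both genes thus had about as many distal sites as Col1a1 and no promoter peak in both replicates. Their territories were longer, at 222.1 kb for Col12a1 and 273.7 kb for Col14a1, against 90.4 kb for Col1a1. They exceeded 82.0% and 79.6% of the genes of their class, and Col1a1 exceeded 96.4% of its own. Col16a1, another FACIT chain, had 6 (6 and 8) and a promoter peak of 94 and 130. Col9a1, Col9a2 and Col9a3, which coat cartilage fibrils, had 4 (4 and 4), 3 (4 and 3) and 0 (0 and 2), all with no promoter peak. Col19a1, Col20a1 and Col22a1 had 3, 1 and 6 and no promoter peak either.

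The network-forming and membrane-bound chains were mixed. Col8a1, a short chain of vessel walls and of the membrane beneath the corneal endothelium, had 16 (17 in replicate 1 and 27 in replicate 2), 9 of them in intron 1. Its promoter peak, 874 bp before the start, had 37 and 73. Col8a2, its partner, had 3 (3 and 4) and no promoter peak. Of the membrane-spanning collagens, Col23a1 had 11 (14 and 20), all inside the gene, with a promoter peak of 77 and 122. Col17a1, of the hemidesmosomes of skin, had 8 (11 and 11), the strongest with 96 and 132, and no promoter peak. Col13a1 and Col25a1 had 3 (5 and 7) and 2 (2 and 9) and no promoter peak. Col28a1 had 8 (8 and 14) and Col26a1 had 5 (5 and 6), neither with a promoter peak. Col7a1, of the anchoring fibrils of skin, had no distal peak in either replicate.

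Col10a1, the short chain of hypertrophic cartilage, had 1 distal shared peak (2 in replicate 1 and 3 in replicate 2) with values of 34 and 58. A promoter peak of 40 was found in replicate 2 alone, 710 bp before the start, at the percentile 9.9. Its RefSeq promoter, chr10:34389731-34390030 of GRCm38.p6 on the plus strand, is shown as the TATA-containing promoter (capitals) of a cartilage gene beside that of Col3a1, and no peak of either replicate covers it.
Col10a1 promoter: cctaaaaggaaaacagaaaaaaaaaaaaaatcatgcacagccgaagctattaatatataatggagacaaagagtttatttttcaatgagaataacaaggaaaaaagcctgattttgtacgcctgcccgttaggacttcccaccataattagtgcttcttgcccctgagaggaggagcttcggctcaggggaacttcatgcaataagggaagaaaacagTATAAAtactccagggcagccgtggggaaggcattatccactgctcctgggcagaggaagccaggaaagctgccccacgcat
The letters TATAAA thus occurred both in a promoter window with a shared peak and in one without. They begin at base 219 of the window at Col10a1 and at base 134 at Col3a1, so their places relative to the start differ.

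The distal sites lay mostly in introns and before the start sites. Of all 397, 186 (46.9%) were in an intron and 11 (2.77%) in an exon of the gene they were assigned to, 123 (31%) were intergenic before it, 39 (9.82%) intergenic past it and 37 (9.32%) in an intron of another gene. The share inside the own gene was 49.6%, against 46.6% over all genes. It was 67.3% (101 of 150) for the other collagens, 49.2% (29 of 59) for basement membrane genes, 42% (55 of 131) for fibrillar genes and 21.1% (12 of 57) for type VI genes. Counting any collagen gene, 227 sites (57.2%) lay inside one, 50 of them in intron 1 and 167 in a later intron. Up to 10 kb past the outermost start there were 37, at 19 genes. By the gene they were assigned to, intron 1 sites were most numerous at Col8a1 (9), Col5a1 (7), Col4a1 (6) and Col5a2 (5). The 4 assigned to Col4a2 lay in intron 1 of Col4a1, so the 6 are not a count of the sites in that intron.

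By strength the collagen sites stood close to distal shared peaks as a whole. Their median percentile was 54.7 in replicate 1 and 70.8 in replicate 2, against 50.7 and 68.5 for all distal shared peaks. The class medians in replicate 1 were 57.3 for fibrillar, 57.3 for basement membrane, 59.8 for type VI and 44.8 for the others. The median GC content of the sites was 49.3%, against 48.7% for all distal shared peaks. Of the collagen peaks of replicate 1, 434 of 470 (92.3%) were found in replicate 2, against 90.4% for all genes, and of those of replicate 2, 433 of 771 (56.2%) were found in replicate 1, against 56.3%.

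CpG content of promoters was set beside the promoter calls, because promoters rich in CpG tend to be open in most cell types. When all genes were divided into 5 equal classes by observed over expected CpG within 500 bp of the start, 9.64%, 28.4%, 67.9%, 82.4% and 88.2% had a promoter peak in both replicates, from the lowest to the highest class. Of the 44 collagen genes 27 fell in the lower 2 classes, and 11 of these had a promoter peak, where the shares of their CpG classes add up to 7.1 genes. Over all 5 classes the 18 accessible collagen genes stood beside a sum of 20. By class the observed number and this sum were 8 and 4.4 for fibrillar, 3 and 2.8 for basement membrane, 3 and 1.7 for type VI and 4 and 11.1 for the other genes. Fibrillar genes were thus above the level of their CpG classes, and the other genes were below it at this window, with no test of either difference. The 4 of the other genes became 12 with a window of 2500 bp, for which no such sum was made, and 8 with the start sites of every transcript.

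**Figure D5:**
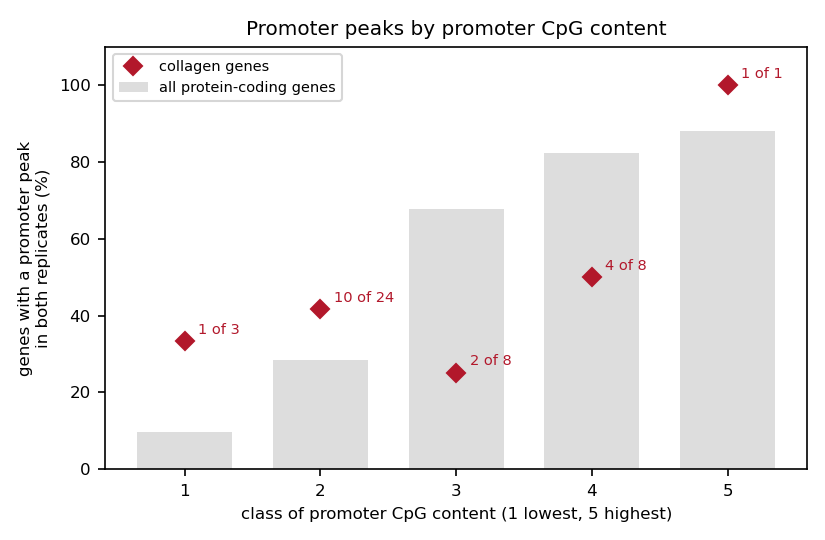
Share of genes with a promoter peak in both replicates, in percent, by class of promoter CpG content (1 lowest, 5 highest), for all protein-coding genes (grey bars) and for collagen genes (red diamonds, labelled with the number of genes). Collagen genes lie above the bars in the lowest 2 classes (1 of 3 and 10 of 24) and below them in the next 2 (2 of 8 and 4 of 8).

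Motifs were counted in the central 150 bp of the distal sites and in the RefSeq promoters. AP-1 (TGANTCA, the site of Fos and Jun factors) was in 57 of 397 collagen sites (14.4%), against 9.97% of all distal shared peaks. The share was 20.3% for basement membrane genes (12 of 59), 20% for the other genes (30 of 150), 8.4% for fibrillar genes (11 of 131) and 7.02% for type VI genes (4 of 57), so the classes lay on both sides of the background. C/EBP (TTGCNNAA, the site of a factor family that drives adipogenesis) was in 14.6%, against 12.7%, TEAD (GGAATG) in 12.1%, against 10%, RUNX (TGTGGTT) in 5.79%, against 4.38%, and the NFI core (TTGGCA) in 21.4%, against 21%. In fibrillar, basement membrane, type VI and other genes C/EBP was in 11.5%, 16.9%, 21.1% and 14%. In the same order TEAD was in 11.5%, 20.3%, 8.77% and 10.7%, and RUNX in 6.11%, 10.2%, 7.02% and 3.33%. The NFI core was in 23.7%, 16.9%, 21.1% and 21.3%. Classes thus differed at these motifs too, and no difference was tested. The E-box (CANNTG, the same on both strands) was in 63.5%, against 62.4%. Matches are letters in the sequence and were not tested as binding sites.

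RefSeq promoter entries were found for 35 of the 44 genes, 38 entries in all. The GC box was in 60.5% of them, against 35.7% of all RefSeq promoters, and in 14 of the 18 entries of genes with a promoter peak in both replicates. CCAAT was in 34.2%, against 37.4%. TATAAA was in 13.2%, against 13.6%, at Col10a1, Col11a2, Col13a1, Col17a1 and Col3a1. Col1a1, Col2a1, Col5a2, Col4a3, Col9a3, Col12a1, Col14a1, Col22a1 and Col26a1 had no entry.

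Genes that make collagen chains into collagen were listed separately. A promoter peak in both replicates was found at 30 of 37 of them, against the background of 55.3%, with a median of 3 distal shared peaks. Of the enzymes that hydroxylate and glycosylate the chains 13 of 15 had one, all but P4ha3 and Colgalt2, and of the chaperones and secretion factors 9 of 9. Of the genes for propeptide removal and cross-linking 8 of 13 had one; Tll2, Adamts3 and Loxl2 had none in either replicate, and Pcolce2 and Loxl4 had one in replicate 2 alone. The highest distal counts were at Adamts2, which trims procollagen (15 in replicate 1, 21 in replicate 2 and 15 in both), P3h2, a prolyl 3-hydroxylase (17, 21 and 13), Creb3l2 (13, 20 and 13) and Creb3l1 (13, 22 and 12), transcription factors of secretory genes. Serpinh1, the collagen chaperone HSP47, had 10 and Lox, a cross-linking oxidase, had 7.

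Of the 9 collagen receptors listed, Ddr1, Ddr2, Itga1, Itga10 and Mrc2 had a promoter peak in both replicates, 5 of 9 against the same background of 55.3%. The receptor kinases Ddr1 and Ddr2 had 16 (17 in replicate 1 and 23 in replicate 2) and 10 (12 and 16) distal shared peaks. Mrc2, an uptake receptor for collagen, had 14 (15 and 20). Itga11, an integrin chain of fibroblasts, had 13 (14 and 19) and no promoter peak. Gp6, the platelet receptor, had no peak of either kind, and Lair1, of immune cells, had 4 distal shared peaks and no promoter peak.

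At the edges of the rules, the outermost promoter peak of both replicates by its centre was 965 bp from a Col4a1 start (38 and 93). The nearest distal site was the one 1064 bp from the Col4a2 start (105 and 141), which also overlaps the window by its flank. The farthest distal site, of Col6a3, was 99737 bp from a start (96 and 133), and the nearest one beyond the reach, of Col23a1, was at 101811 bp (21 and 36).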

How the data were processed

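DNase-seq peaks and hotspots of both libraries were used as deposited, per the labels on assembly mm10, which is GRCm38. Regions were called for each library separately, as the text deposited beside the lists names 1 alignment for each. The sources used here do not give the caller, the aligner or the sequencing depth. The authors deposited a signal value for each peak, whole numbers from 1 to 150 with no scaling stated, and it served only to rank and describe peaks of the same list. The deposited hotspot lists carry a −log10 q value that reached its ceiling at 46.7% and 48.5% of hotspots, and only their extent was used. Identical lines, 20 in replicate 1 and 33 in replicate 2, were counted once, and 337 and 603 peaks off the 21 chromosomes were left out.

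Peaks were joined with GENCODE M21 by Python 3.11.15, pandas 2.3.3, NumPy 2.4.6 and pysam 0.24.0. Start sites were those of protein-coding transcripts. This main rule departs from the plan, which had named the start sites of every transcript. The planned start sites are reported as an alternative, added after the data had been seen. A region was shared where peaks of both replicates overlapped by at least 1 bp. Counts per library count peaks, and shared counts count merged regions. The 44 members, their classes and the gene lists were chosen with earlier results of these data known, and the lists support nothing by themselves. Every member is accounted for. Named with fuller values were the 3 members of each class with the most distal shared peaks, the head-to-head and neighbouring pairs, members with a promoter peak in 1 replicate alone, and Col1a1, Col1a2, Col3a1, Col2a1, Col10a1, Col15a1 and Col18a1. The counting of regions was tested on simulated intervals. Promoter sequences are from RefSeq (GRCm38.p6), and peaks were read from GRCm38. The interval given for the share of sites inside collagen genes is exact binomial, at 95%, and covers counting error only.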

Additional observations from a re-analysis of the deposited data

How the results depend on the processing

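The number of collagen genes with a promoter peak in both replicates was 18 and ranged from 15 to 24 under a 500 bp window, the stronger 50% of peaks, hotspots, and other sets of start sites. It was 28 with a window of 2500 bp, where the other collagens went from 4 to 12. With the start sites of every transcript it was 24, 54.5% against 57.2% of all genes, and the other collagens had 8. That setting added Col11a1, Col6a5, Col13a1, Col25a1, Col15a1 and Col26a1. Leaving out either replicate gave 18 to 22 for all collagen genes and 3 to 5 for type VI. The 500 bp window lost Col1a1, Col11a2 and Col8a1. The 2500 bp window added Col11a1, Col4a6, Col9a2, Col12a1, Col14a1, Col13a1, Col15a1, Col8a2, Col26a1 and Col28a1.

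The 397 distal shared peaks became 159 with assignment within 20 kb and 208 with the stronger 50% of shared peaks, by construction, and 432 to 723 with either replicate left out. Other settings gave 290 to 445. The share of sites inside a collagen gene was 57.2% (exact binomial 95% interval 52.1 to 62.1, over sites, for counting error only) and 66.7% with assignment within 20 kb; the cause was not tested. Of the replicate 1 peaks of collagen genes, 92.3% were found in replicate 2, 87% with an overlap of 50% of both peaks and 80.2% with the replicate 2 list shortened to the length of replicate 1. The depth of the libraries limits every count, and is unknown. No paired analysis was possible because there is 1 group.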

Other observations

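Shared regions beyond the 100 kb reach whose nearest protein-coding start was that of a collagen gene were most numerous at Col3a1 (18), Col12a1 (14), Col8a1 (12), Col11a1 (8) and Col5a2 (5). At Col3a1 they equal the 18 distal shared peaks within reach, and at Col11a1 they exceed the 4 within reach. They entered no count of the report.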
